A study of Mus musculus with 48 samples.

Results

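The bile transporters and the FXR axis of mouse liver are described here as 10 genes, taken by name from the 46517 genes counted in every sample and not for their values. Of these, 2 regulate bile acid genes (Nr1h4 and Nr0b2), 3 export into the canaliculus (Abcb11, Abcb4 and Abcc2), 3 take up from blood across the basolateral membrane (Slc10a1, Slco1a1 and Slco1b2) and 2 export back across it (Abcc3 and Abcc4). RNA was sequenced from 5 explants, 3 livers, 3 preparations of isolated primary hepatocytes, 2 samples of spheroids kept in vitro and 3 irises, with 3 technical libraries of each sample. The labels give all of them the strain C57BL/6N and the genotype WT Albino. The study's methods describe adult mice of either sex and do not record sex per sample, and list an albino strain of another background. An explant holds liver spheroids that had engrafted on the iris in the anterior chamber of the eye (ACE), dissected together with that iris 2 months post-tx. Livers and hepatocytes came from donor mice, and hepatocytes were enriched after collagenase perfusion. Per the study's methods, spheroids formed from such cells in medium with serum, which was then partly replaced, in repeated steps, with serum-free medium. Both media held insulin, transferrin, selenium and dexamethasone. The age of the spheroids sampled in vitro is not given in the sources used here.

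Hepatocytes take bile acids from sinusoidal blood through Slc10a1 (NTCP, sodium-dependent) and the organic anion transporters Slco1a1 and Slco1b2, and secrete bile through ATP-driven pumps of the canalicular membrane. Abcb11 (BSEP) pumps bile salts, Abcb4 (MDR2) moves phosphatidylcholine into bile, and Abcc2 (MRP2) exports conjugates such as bilirubin glucuronide. Abcc3 and Abcc4 (MRP3 and MRP4) return conjugates and bile acids to blood and are known to be induced in cholestasis. Bile acids activate FXR, encoded by Nr1h4, which pairs with the retinoid X receptor, induces Abcb11 and Nr0b2, and through Nr0b2 (SHP) represses bile acid synthesis.

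FXR with its partner is known to bind an inverted repeat of AGGTCA with 1 base between the copies. The 250 bases before the start site were searched for AGGTCA on either strand and for the repeat (AGGTCA, any 1 base, TGACCT) with at most 1 mismatch, in the RefSeq promoters of GRCm38.p6, which hold 9 of the 10 genes (all but Abcc3). AGGTCA is part of the repeat, so the searches overlap. AGGTCA stood in 14% of 32851 promoters and the repeat with at most 1 mismatch in 0.0791% (26 promoters). Of the 9 genes, 6 held AGGTCA in a promoter (Nr1h4, Abcb11, Abcc2, Slc10a1, Slco1a1 and Slco1b2), and Abcb11 and Slco1b2 held the repeat. Slc10a1 and Abcc4 have more than 1 promoter, so a count of genes and a share of promoters are different units. Slc10a1 did not hold AGGTCA in every promoter. The Nr1h4 promoter searched lies inside the span of the gene given below. The promoters of the bile salt pump and of both organic anion transporters are printed because these genes were among the members that fell most in spheroids against hepatocytes. Nr0b2 fell more than Abcb11 and Slco1b2 there, and its promoter held neither AGGTCA nor the repeat. A link between a match and a fall was not tested. Capitals mark AGGTCA or its complement, and the whole repeat where there was one. The sequences are Abcb11 (chr2:69342617-69342866, minus strand), Slco1b2 (chr6:141629268-141629517, plus strand) and Slco1a1 (chr6:141946963-141947212, minus strand), 5′ to 3′.
Abcb11: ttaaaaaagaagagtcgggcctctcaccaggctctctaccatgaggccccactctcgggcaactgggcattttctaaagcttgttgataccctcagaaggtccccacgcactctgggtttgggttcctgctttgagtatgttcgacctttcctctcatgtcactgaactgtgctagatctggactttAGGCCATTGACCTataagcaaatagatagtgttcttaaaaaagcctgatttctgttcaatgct
Slco1b2: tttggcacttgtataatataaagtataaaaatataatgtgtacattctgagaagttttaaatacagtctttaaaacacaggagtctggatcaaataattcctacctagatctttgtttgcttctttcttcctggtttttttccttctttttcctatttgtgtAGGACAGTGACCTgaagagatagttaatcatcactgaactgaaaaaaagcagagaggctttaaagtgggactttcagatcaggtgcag
Slco1a1: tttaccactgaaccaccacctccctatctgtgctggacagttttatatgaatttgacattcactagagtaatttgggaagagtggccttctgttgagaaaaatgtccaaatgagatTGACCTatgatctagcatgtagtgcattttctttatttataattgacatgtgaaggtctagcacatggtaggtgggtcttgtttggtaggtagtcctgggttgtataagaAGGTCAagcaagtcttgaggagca
In Abcb11 the repeat lies 63 to 51 bases before the start and differs from the repeat's letters by T4C, counted from the repeat's 5′ end. In Slco1b2 it lies 88 to 76 bases before the start and differs by T4A. Slco1a1 held 2 copies of AGGTCA, 134 to 129 and 24 to 19 bases before its start, and no repeat within 1 mismatch. The genes Slco1b2 and Slco1a1 lie 220635 bases apart on chromosome 6 (GRCm38). These are matches of letters and not measured binding.

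Levels are given as TPM, which the authors calculated from their counts and gene lengths, so that genes can be set side by side. Explants had total counts of 5449589 to 6789648 and irises of 4596550 to 4881817. The totals of livers (3523171 to 3871404), hepatocytes (2718518 to 3573075) and spheroids (3247327 and 3447643) were lower. For the explants an iris contribution was subtracted by the formula of the study's methods, at iris fractions of 59.0% to 82.0% solved from the deposited values, and these TPM are called corrected. The deposited column of explant 4 follows another form of subtraction, and the formula was applied to it here. The corrected hepatocyte markers summed to 15755 to 23013 TPM (10 of 10 at 1 TPM or more) and the livers' to 12941 to 13906 TPM. Before correction the explants' sum was 5633 to 7635 TPM. The irises also had 10 of 10 markers at 1 TPM or more, with a sum of 1698 to 2049 TPM. The sums, and not the 10 of 10, thus show the labelled tissue in explants and livers. Of the 10 hepatocyte markers, 3 were called higher and 1 lower in corrected explants than in livers. Other cells differed too: 7 of 7 macrophage markers summed to 1494 to 3256 TPM in corrected explants and 211 to 584 TPM in livers. The 8 cholangiocyte markers summed to 690.3 to 1470.1 TPM and 318 to 612 TPM, but the irises held 926 to 1042 TPM of them. Here 6 of 7 macrophage and 1 of 8 cholangiocyte markers were called higher against livers, where 12.2% of all genes tested were. Of the sinusoidal endothelium markers 3 of 5 were called lower, where 3.50% of all genes tested were. The part of these cells in the results was not tested. Iris markers were left at 194 to 2533 TPM after the subtraction, against 298 to 306 TPM in livers, and lens markers were listed at 0 in every corrected explant. Kupffer cell markers, in contrast, summed to 14.7 to 149.8 TPM in corrected explants and 192 to 352 TPM in livers. In bulk samples fewer cells of a type and less RNA per cell cannot be told apart. Where nothing in the labels says that samples came from separate animals, p-values measure the spread between these samples.

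Nr1h4 was expressed in every liver-derived group. Nr1h4 (ENSMUSG00000047638) lies on chromosome 10 from 89454234 to 89533585 in GRCm38, the build of all positions here. Its TPM was 263, 288 and 344 in the livers, 335, 241 and 219 in the hepatocytes, 278 and 342 in the spheroids, and 144, 193, 177, 158 and 246 in corrected explants 1, 2, 4, 5 and 6. The corrected explants lay below every liver (mean 184 ± 39.5, SD, n = 5, against 298 ± 41, n = 3) and overlapped the hepatocytes. The naïve irises held 18.4 to 21.1 TPM, and the subtraction took 10.2% to 38% of the explants' TPM.

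Nr0b2, a direct target of FXR, ranged more widely than FXR itself. Nr0b2 (ENSMUSG00000037583) lies on chromosome 4 from 133553376 to 133556536. It stood at 181, 394 and 303 TPM in the hepatocytes and at 20.8 and 3.55 TPM in the spheroids, where it rested on 31 and 5 counts. Livers 1, 2 and 3 held 49.9, 176 and 163 TPM, and the corrected explants 58.5, 116, 39.9, 119.6 and 258 TPM. Spheroids thus lay below all other liver-derived samples, and explants and livers overlapped. Per unit of Nr1h4, Nr0b2 was 0.541 to 1.64 in hepatocytes, 0.189 to 0.611 in livers, 0.225 to 1.05 in corrected explants, and 0.0748 and 0.0104 in spheroids.

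Among the canalicular genes, Abcb11 (ENSMUSG00000027048) lies on chromosome 2 from 69238282 to 69342616. It was highest in the hepatocytes at 369.7, 363 and 430.2 TPM. The livers held 294, 207 and 207 TPM and the spheroids 89.1 and 113 TPM. The corrected explants held 168, 215, 93.0, 172 and 243 TPM, so they overlapped livers and spheroids and lay below every hepatocyte preparation. Of its exon bases 3.01% (155 bases) are shared with Gm13613 and Gm13614, and no other of the 10 genes shares exon bases.

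Abcb4 did not follow the bile salt pump. Abcb4 (ENSMUSG00000042476) lies on chromosome 5 from 8893717 to 8959231. It was 91.0, 69.8 and 84.1 TPM in the livers, 67.4, 87.3 and 61.8 TPM in the hepatocytes, and 77.4, 96.2, 96.9, 103 and 113 TPM in the corrected explants. Explants, livers and hepatocytes overlapped. The spheroids reached 87.8 and 174 TPM, both above the highest hepatocyte value. Abcc2 (ENSMUSG00000025194) lies on chromosome 19 from 43782192 to 43840740. It was 208, 150.0 and 183 TPM in the livers, 158, 194 and 132 TPM in the hepatocytes and 72.6 and 105 TPM in the spheroids, against 84.6, 75.5, 115, 85.5 and 119 TPM in the corrected explants. Explants and spheroids both lay below every liver and every hepatocyte preparation for Abcc2. The irises held 11.3 to 12.5 TPM of Abcc2, and the subtraction took 12.7% to 39.4% of its TPM.

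By TPM, which divides by gene length, Slc10a1 was the most abundant member in each liver-derived group. By counts Slco1b2, with 4929 exon bases against 1674, exceeded it in every liver, hepatocyte and explant sample (2868 against 2570 in liver 1). Slc10a1 (ENSMUSG00000021135) lies on chromosome 12 from 80953185 to 80968079. Its TPM was 1069.6, 1473 and 1349.8 in the livers, 1617, 1513 and 1598 in the hepatocytes, and 402, 589, 640.5, 472 and 672 in the corrected explants. Every explant lay below every liver, with means of 555 ± 114 (SD, n = 5) and 1297 ± 207 (n = 3). The spheroids, at 596 and 1176 TPM, overlapped explants and livers.

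Slco1a1 was low in engrafted and in cultured spheroids. Slco1a1 (ENSMUSG00000041698) lies on chromosome 6 from 141907282 to 141946962. It stood at 321, 443 and 398 TPM in the hepatocytes, and at 2.88 and 3.81 TPM in the spheroids, on 20 and 25 counts. The corrected explants held 0, 1.50, 17.4, 2.16 and 6.45 TPM. Before correction they held 10 to 57 counts (1.03 to 5.27 TPM), and the irises, at 1.48 to 3.28 TPM, overlapped them, so between 35.2% and 193% of each explant's TPM was subtracted. The livers did not form a single group, since liver 1 held 10.2 TPM and livers 2 and 3 held 276 and 325 TPM. The 77 counts of liver 1 were spread over its technical libraries as 29, 24 and 24.

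Slco1b2 levels in engrafted and cultured spheroids did not overlap. Slco1b2 (ENSMUSG00000030236) lies on chromosome 6 from 141629518 to 141686646. The livers held 405, 580.1 and 666 TPM and the hepatocytes 702, 1046 and 786 TPM. The corrected explants held 205, 253, 619.6, 362 and 344 TPM, and the spheroids 12.3 and 128 TPM. Every explant lay above both spheroid samples and below every hepatocyte preparation, and explant 4 reached the range of the livers. The spheroid samples differed from each other, with 80 and 787 counts.

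Of the basolateral efflux pumps, Abcc3 was expressed in all liver-derived groups. Abcc3 (ENSMUSG00000020865) lies on chromosome 11 from 94343295 to 94392997. It was 189, 197 and 244 TPM in the livers, 177, 255 and 154 TPM in the hepatocytes, 147 and 143 TPM in the spheroids, and 70.7, 112, 82.1, 90.7 and 118 TPM in the corrected explants. The explants were the lowest of these groups and overlapped none of them. Abcc4 was highest on average in the iris, with 47.5 to 49.3 TPM there. Abcc4 (ENSMUSG00000032849) lies on chromosome 14 from 118482692 to 118706219. It stood at 14.1, 1.60 and 3.45 TPM in the livers, 2.44, 1.25 and 1.10 TPM in the hepatocytes, and 7.83 and 0.421 TPM in the spheroids, the last on 3 counts. The corrected explants held 27.8, 18, 76.8, 13.5 and 3.82 TPM, after 72.8% to 94.8% of their TPM had been subtracted as iris. The value of explant 4 is 32.9 in the deposited column, and before correction the explants (30 to 53.6 TPM) overlapped the irises.

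**Figure D1:**
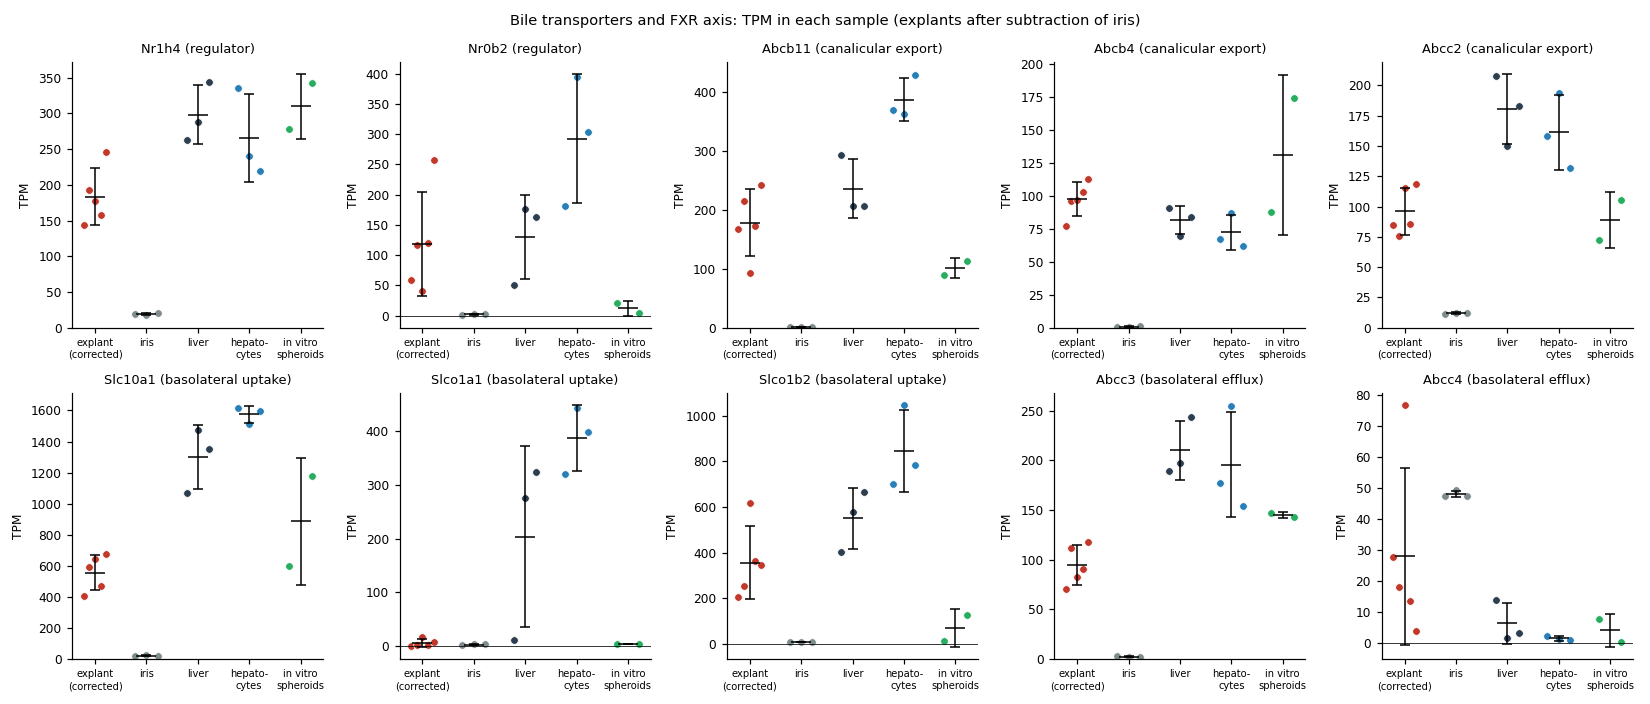
TPM of the 10 genes in each sample, with explants after subtraction of iris. Each point is a sample, the long tick is the group mean and the whiskers are the SD. Nr0b2 and Slco1b2 are lowest in spheroids among liver-derived groups, Slco1a1 is at most 17.4 TPM in explants and spheroids, and Abcc4 is highest in iris apart from explant 4 at 76.8 TPM.

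To ask which members rose above the iris that an explant carries, uncorrected counts of explants and irises were compared. Of the 10 genes, 8 rose, against 9.04% of all 16764 genes tested that were called higher and 2.74% called lower (edgeR, adjusted p under 0.05). Abcb11 and Abcb4 rose 37.1- and 36.9-fold (log2 fold change 5.21 ± 0.72 and 5.21 ± 0.55, SE, adjusted p = 0.00201 and 0.000515). Nr0b2 rose 24-fold, Abcc3 14.5-fold, Slco1b2 12.6-fold and Slc10a1 9.15-fold (adjusted p = 0.0244, 0.00222, 0.000759 and 0.00200). Nr1h4 (3.79-fold, adjusted p = 0.0103) and Abcc2 (3.2-fold, adjusted p = 0.00595) rose as well. Slco1a1 (log2 fold change 0.40 ± 0.50, adjusted p = 0.648) and Abcc4 (-0.14 ± 0.12, adjusted p = 0.488) did not pass the test. The median log2 fold change was 3.42 for the members and 3.83 for the hepatocyte-enriched genes tested. Hepatocyte-enriched genes are those with at least 10 TPM in livers and an iris level of at most 5% of that, 634 in all, of which 512 were tested here. They were picked from these same livers and irises and not from the hepatocyte samples, so genes of other liver cells can be among them. By this rule the set includes all the members but Nr1h4, Abcc2 and Abcc4. Nr1h4 and Nr0b2 lost their calls without any of the irises (adjusted p = 0.0505 to 0.0591 and 0.0947 to 0.109), which left 6 of the members called. By limma-voom the called members were Abcb4, Abcc2, Slc10a1 and Slco1b2. Of all calls, 76.7% were higher in explants, and 60.6% when scaled by library size alone.

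Corrected explants were then set against in situ liver, the comparison that asks how far engrafted spheroids keep the transporters of the organ. Of the 10 genes, 4 fell and none rose, where 3.50% of the 21002 genes tested were called lower and 12.2% higher (limma on log2(TPM + 1)). Slc10a1 fell to 0.425 of liver (log2 fold change -1.24 ± 0.20, SE, adjusted p = 0.00520), Abcc3 to 0.449 (-1.16 ± 0.24, adjusted p = 0.0126) and Abcc2 to 0.531 (-0.91 ± 0.24, adjusted p = 0.0331). Slco1a1 fell by 4.63 on the log2 scale (SE 1.26, adjusted p = 0.0375), although liver 1 overlapped the explants. Nr1h4 was just outside the threshold (-0.71 ± 0.22, adjusted p = 0.0561). Nr0b2 (-0.22 ± 0.63), Abcb11 (-0.45 ± 0.32), Abcb4 (0.25 ± 0.22), Slco1b2 (-0.70 ± 0.34) and Abcc4 (1.82 ± 0.90) did not pass the test, with adjusted p from 0.205 to 0.821.

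The median log2 fold change against liver was -0.71 for the 10 members, -0.71 for the hepatocyte-enriched genes and 0.61 for all genes tested. When each sample was centred on its hepatocyte-enriched genes, the median of all genes shifted by 0.87, Slc10a1 (-0.37, adjusted p = 0.130), Abcc3 (-0.29, adjusted p = 0.382) and Abcc2 (-0.05, adjusted p = 0.912) lost their calls, Slco1a1 kept its own (-3.77 ± 1.15, adjusted p = 0.0341), and Abcb4 rose (1.12 ± 0.30, adjusted p = 0.0200). Of all calls, 77.6% were higher in explants as fitted and 96.4% after this centring. Liver 1 decided the size of the Slco1a1 difference, which was -6.22 and still called without it, and -3.90 and -3.78 with adjusted p of 0.181 and 0.183 without liver 2 or liver 3. Slco1a1 also lost its call without explant 1, 2 or 5 (adjusted p = 0.0644 to 0.0704). Slc10a1 kept its call whichever sample was left out, Abcc3 lost it without liver 2 or 3 (adjusted p = 0.0597 and 0.0830), and Abcc2 without any of the livers (0.0795 to 0.140), explant 2 (0.0522) or explant 5 (0.0645). The number of members called was 2 without explant 2 or 5, and 1 without liver 2 or 3. With the deposited correction Slc10a1 alone was called, and Abcc2 (0.127), Slco1a1 (0.0785) and Abcc3 (0.0698) were not.

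Against the hepatocyte preparation, the cells that spheroids are made from, more members differed. Here 5 of 10 fell and 1 rose, where 3.96% of the 20726 genes tested were called lower and 16.2% higher. All 3 uptake genes fell, with Slc10a1 at 0.347 of hepatocytes (log2 fold change -1.53 ± 0.18, adjusted p = 0.000643), Slco1b2 at 0.399 (-1.33 ± 0.33, adjusted p = 0.0221) and Slco1a1 at 0.0105 (-6.57 ± 0.83, adjusted p = 0.000810). Abcb11 fell to 0.44 (-1.18 ± 0.30, adjusted p = 0.0228) and Abcc3 to 0.491 (-1.03 ± 0.26, adjusted p = 0.0238). Abcc4 was called higher (2.96 ± 0.81, adjusted p = 0.0311), on the values left after most of its TPM had been subtracted. Nr1h4 (-0.53 ± 0.23), Nr0b2 (-1.52 ± 0.56), Abcb4 (0.43 ± 0.23) and Abcc2 (-0.75 ± 0.24) did not pass, with adjusted p of 0.147, 0.0887, 0.217 and 0.0608.

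The scaling mattered here too. After centring on hepatocyte-enriched genes, which shifted the median of all genes by 0.96 and the share of calls that were higher from 80.4% to 97.1%, Slc10a1 (-0.57 ± 0.17, adjusted p = 0.0229) and Slco1a1 (-5.61 ± 0.77, adjusted p = 0.000601) were still lower and Abcc4 (3.92 ± 0.91, adjusted p = 0.00850) still higher, and Abcb4 became so (1.39 ± 0.28, adjusted p = 0.00436). Abcb11 (-0.22), Slco1b2 (-0.37) and Abcc3 (-0.07) lost their calls. Without hepatocyte sample 1 or 2 the members called were Slc10a1 and Slco1a1 alone, and without sample 3 Abcc3 as well. Abcc4 also lost its call without explant 1 (adjusted p = 0.0568) or explant 2 (0.0501). With the deposited correction Abcb11 (adjusted p = 0.0644) and Abcc3 (0.0981) lost their calls. Without subtraction of iris all 10 members were called against livers and against hepatocytes, with Abcc4 alone higher in explants. Most genes were called then, 14066 of 19764 tested against livers and 14936 against hepatocytes.

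Hepatocytes were compared with livers to see what the preparation of cells changed. Between them, Abcb11 rose 1.82-fold (edgeR, log2 fold change 0.86 ± 0.16, adjusted p = 0.0386) and no other member passed, where 0.785% of the 12236 genes tested were called higher and 2.84% lower. Nr0b2 (1.30 ± 0.46, adjusted p = 0.129), Slco1b2 (0.75 ± 0.22, adjusted p = 0.0908) and Slc10a1 (0.42 ± 0.15, adjusted p = 0.141) missed the threshold. By TPM they lay higher in every hepatocyte sample than in every liver. The nearest hepatocyte and liver samples held 181 and 176 TPM of Nr0b2, 702 and 666 TPM of Slco1b2, and 1513 and 1473 TPM of Slc10a1. For 3 samples against 3, even full separation cannot bring the exact permutation p under 0.05, so no difference is drawn from it. The share of all genes that separate in this way is not given here. With size factors from hepatocyte-enriched genes, Abcb11 was 0.63 ± 0.19 with an adjusted p of 0.0734, and calls were 5.83% higher in place of 21.7% (10.5% by library size alone). Abcb11 also lost its call without hepatocyte sample 2 or 3 or liver 2 or 3 (adjusted p = 0.0853 to 0.141), by limma-voom and in a single fit of all groups. Slco1a1 (1.05 ± 0.87) was 0.47 without liver 1, and Abcc4 (-1.81 ± 0.76, adjusted p = 0.182) was -0.54 without it.

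Spheroids in vitro were compared with the hepatocytes they are formed from. Of the 10 genes, 6 fell, where 13.4% of the 12247 genes tested were called lower and 12.5% higher. Slco1a1 fell 144-fold (log2 fold change -7.17 ± 0.35, adjusted p = 4.74e-05), Nr0b2 30.3-fold (-4.92 ± 0.58, adjusted p = 0.00138), Slco1b2 14.2-fold (-3.83 ± 0.91, adjusted p = 0.0205) and Abcb11 4.79-fold (-2.26 ± 0.26, adjusted p = 0.00133). The decreases of Abcc2 (2.23-fold, adjusted p = 0.0212) and Slc10a1 (2.18-fold, adjusted p = 0.0490) were those of the median hepatocyte-enriched gene, at -1.12 on the log2 scale. Nr1h4 (-0.08 ± 0.24), Abcb4 (0.57 ± 0.34), Abcc3 (-0.75 ± 0.25, adjusted p = 0.0577) and Abcc4 (0.95 ± 0.87) did not pass.

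Relative to hepatocyte-enriched genes, which shifts the median of all genes by 1.09, the members split in both directions. Slco1a1 (-6.12), Nr0b2 (-3.77), Slco1b2 (-2.96) and Abcb11 (-1.21) were still lower (adjusted p from 6.62e-07 to 0.00310). Nr1h4 (0.96 ± 0.21, adjusted p = 0.00291), Abcb4 (1.56 ± 0.23, adjusted p = 0.000391) and Abcc4 (2.20 ± 0.89, adjusted p = 0.0478) were then called higher, and Abcc2 and Slc10a1 (both -0.13) were not called. The share of all calls that were higher went from 48.2% to 93.9% with these factors and to 70.1% by library size alone. The spheroid samples were unlike, so Abcb4 was 1.06 and called without spheroid sample 1 and -0.17 without sample 2, and Abcc4 was -2.10 without sample 1 and 1.81 without sample 2. Slco1b2 was -2.93 without spheroid sample 1 and -6.55 without sample 2, and Nr0b2 was -6.54 without sample 1, all of them called. Abcc2 lost its call without spheroid sample 1 (-0.82, adjusted p = 0.0681), Slc10a1 without that sample (-0.64, adjusted p = 0.0602, against -1.86 without sample 2) or any hepatocyte sample, and Slco1b2 without hepatocyte sample 3 (adjusted p = 0.0517), which left 4 members called. Kupffer cell markers summed to 444 to 488 TPM in spheroids and 101 to 187 TPM in hepatocytes, with 2 of 4 called higher, and macrophage markers to 352 to 457 TPM and 82.0 to 149 TPM, with 3 of 7 called higher. Their part in the result was not tested.

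Corrected explants and spheroids in vitro differed in no member past the threshold, with 5.08% of the 21217 genes tested called higher in explants and 1.02% lower (limma). At an unadjusted p under 0.05, the exact permutation test gave 3 members, at 0.0476, the smallest p that 5 samples against 2 allow. The same threshold gave 3612 of all 21217 genes. These were Nr0b2 (3.29 ± 0.82, adjusted p = 0.0561), Slco1b2 (3.00 ± 0.79, adjusted p = 0.0679) and, lower in explants, Nr1h4 (-0.77 ± 0.27, adjusted p = 0.166). For Nr0b2 and Slco1b2, 5 of 5 explants lay above both spheroid samples, which is not evidence apart from the permutation p. Nr1h4 and Abcc3 lay below both spheroid samples in every explant, Abcc3 at an exact permutation p of 0.0952. Nr0b2 was called without explant 4 (3.61, adjusted p = 0.0399), and Slco1b2 without spheroid sample 2 (4.64, adjusted p = 0.0378). Abcb11 (0.75 ± 0.39), Abcc2 (0.11 ± 0.32), Slc10a1 (-0.62 ± 0.31) and Slco1a1 (-0.10 ± 1.11) did not pass, and the groups overlapped.

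**Figure D2:**
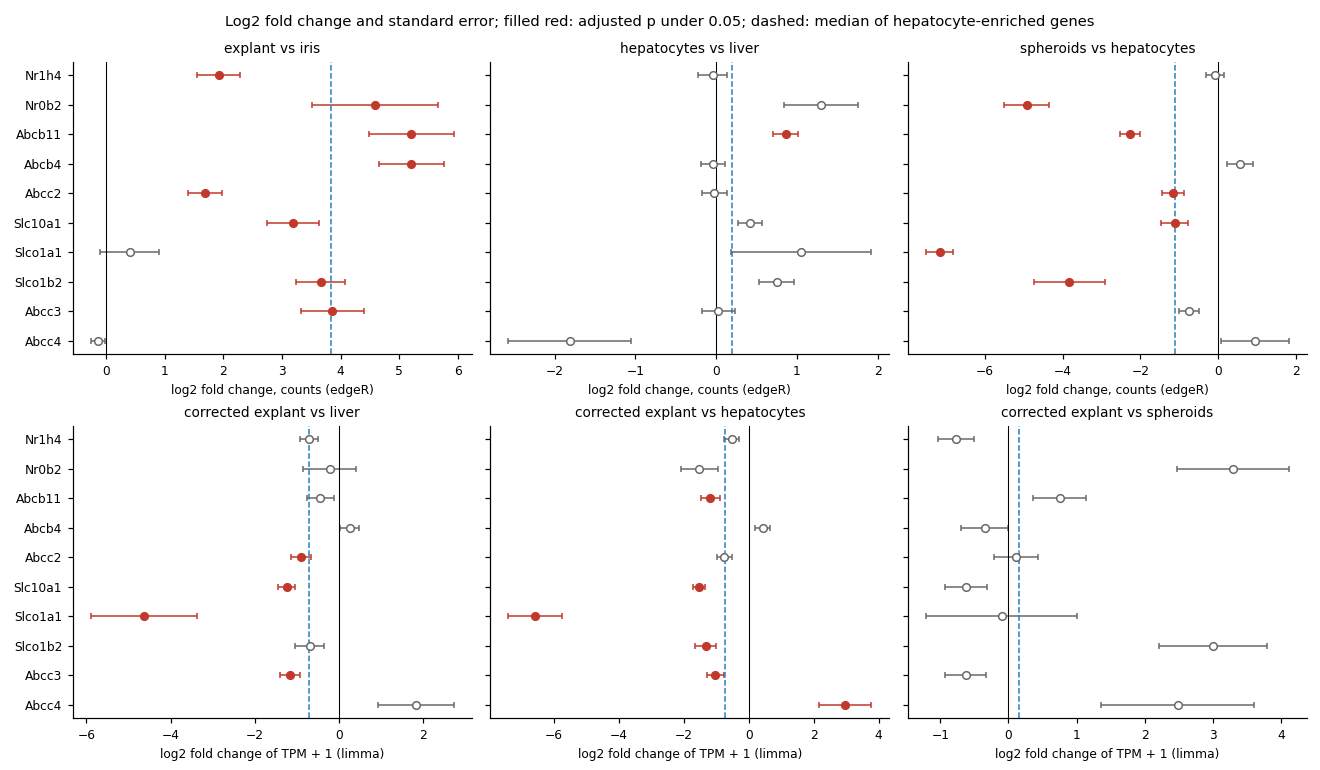
Log2 fold change (points) with its SE (bars) of the 10 genes in the 6 comparisons, from counts in the upper row and from log2(TPM + 1) in the lower row. Filled red points have an adjusted p under 0.05, and the dashed line is the median of hepatocyte-enriched genes. Against liver Slco1a1 at -4.63 lies farthest below that line at -0.71, and Abcb4 at 0.25 and Abcc4 at 1.82 lie above 0.

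The members were summed by role. These sums are descriptions, and no test was made on them. Canalicular genes summed to 305 to 475 TPM in corrected explants and 427 to 593 TPM in livers, and uptake genes to 608 to 1277 TPM and 1485 to 2341 TPM. Efflux genes summed to 98.5 to 159 TPM in explants and 198 to 248 TPM in livers. Only the canalicular sums overlapped between explants and livers.

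Uptake over canalicular export was 4.44, 4.66 and 4.46 in the hepatocytes, 2.51, 5.46 and 4.94 in the livers, 2.45 and 3.34 in the spheroids and 1.84, 2.18, 4.19, 2.32 and 2.15 in the corrected explants. Apart from explant 4 the explants lay below every liver and every hepatocyte preparation, and liver 1 was the lowest of the livers, with its 10.2 TPM of Slco1a1. Efflux over canalicular export was 0.256 to 0.521 in explants, 0.342 to 0.522 in livers, 0.248 to 0.398 in hepatocytes, and 0.619 and 0.366 in spheroids. Apart from explant 4, at 0.521, the explants lay at 0.256 to 0.337, below every liver and spheroid sample, and overlapped the hepatocytes. Explant 4 held 76.8 TPM of Abcc4, which is 32.9 TPM in the deposited column. In the irises efflux over canalicular export was 3.23 to 3.72, since Abcc4 made up most of the efflux sum.

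Within the canalicular class the balance of bile salt pump and phospholipid transporter shifted. Abcb11 over Abcb4 was 5.49, 4.16 and 6.96 in the hepatocytes, 3.23, 2.96 and 2.47 in the livers, 2.17, 2.24, 0.960, 1.67 and 2.15 in the corrected explants and 1.01 and 0.648 in the spheroids. Hepatocytes, livers and explants did not overlap, and spheroids overlapped explant 4 alone. Within the uptake class Slc10a1 made up 89.9% and 97.5% of the summed TPM in spheroids, and 50.1% to 72.0% in explants, livers and hepatocytes.

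**Figure D3:**
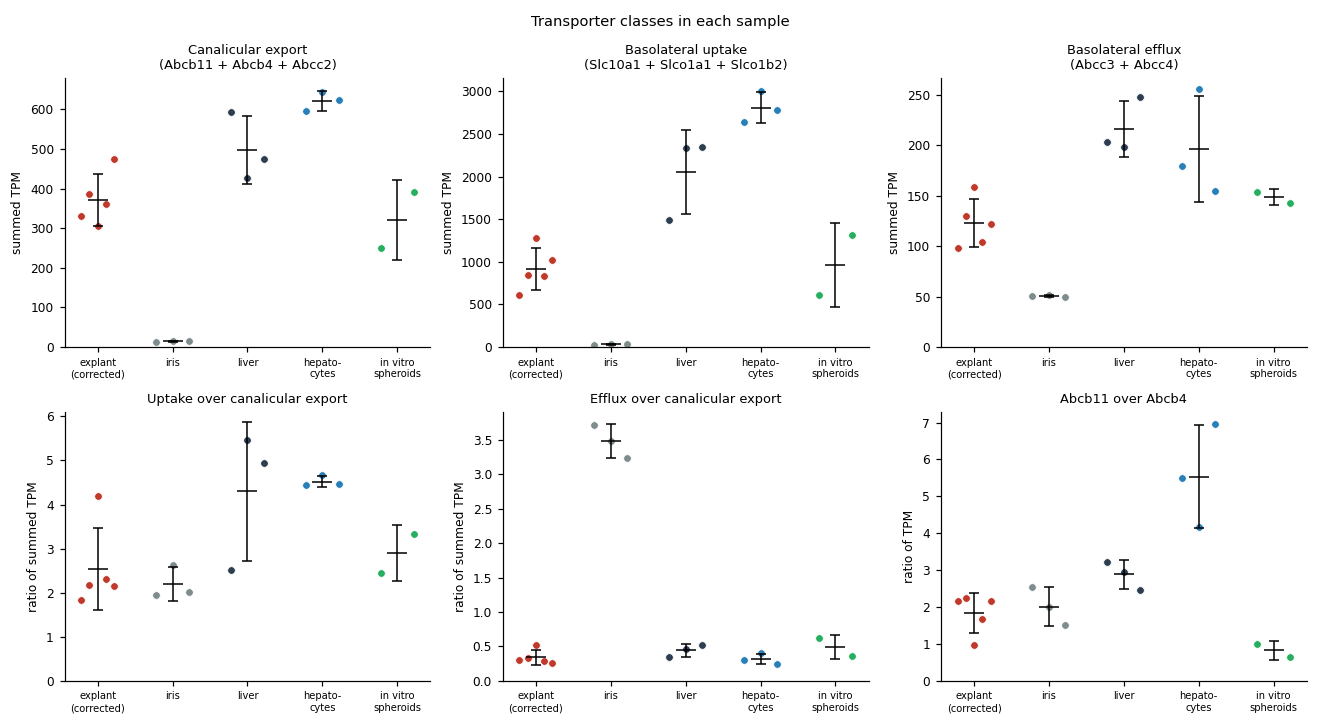
Summed TPM of each transporter class (upper row) and ratios between classes or genes (lower row) in each sample, with explants after subtraction of iris. Points are samples, long ticks are means and whiskers are the SD. Abcb11 over Abcb4 runs from 4.16 to 6.96 in hepatocytes down to 0.648 in a spheroid sample.

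Other genes of bile transport were counted in 5 lists of 54 genes. Among other basolateral efflux genes the largest difference was that of Slc51b, the beta subunit of the organic solute transporter and a known FXR target. It held 52.6, 64.4, 22.8, 63.7 and 112 TPM in corrected explants 1, 2, 4, 5 and 6, 9.99, 7.21 and 4.05 TPM in livers, 5.74, 1.63 and 7.37 TPM in hepatocytes and 1.56 and 1.65 TPM in spheroids. Every explant lay above every other sample, and the irises held 0 to 3.69 TPM. Slc51b rose against livers (log2 fold change 2.89 ± 0.52, limma, adjusted p = 0.00707), hepatocytes (3.43 ± 0.57, adjusted p = 0.00326) and spheroids (4.46 ± 0.61, adjusted p = 0.00645), although the last call was lost without either spheroid sample (adjusted p = 0.0793 and 0.0888). Without subtraction of iris the difference from livers was 1.23 and not called (adjusted p = 0.0751), and explant 4, at 6.00 TPM before correction, lay below livers 1 and 2. Its partner subunit Slc51a was listed at 0 in 15 of 16 samples, with 1.61 TPM in corrected explant 4, from 0.305 TPM before correction.

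In the same list Abcc6 fell against livers (-1.66 ± 0.34, adjusted p = 0.0119) and hepatocytes (-1.84 ± 0.33, adjusted p = 0.00493), and Abcc1 was called higher against both (2.04 and 2.49), with an iris level of 10.5 to 12.5 TPM that overlapped the explants before correction. Against livers Abcc6 lost its call without liver 2 or 3 (adjusted p = 0.0669 and 0.0742), with the deposited correction (0.0599) and when centred on hepatocyte-enriched genes (-0.80, adjusted p = 0.111). Abcc1 lost it without any of the livers (0.0873 to 0.138) and with the deposited correction (0.285). In all, 2 of 5 tested genes of the list were called higher and 1 lower against livers, with a median of 1.85 where all genes had 0.61. Against livers 12.2% of all genes tested were called higher and 3.50% lower. Of the other canalicular transporters, 0 of 8 rose and 2 fell against livers, namely the sterol exporters Abcg5 (-0.98 ± 0.24, adjusted p = 0.0248) and Abcg8 (-1.06 ± 0.31, adjusted p = 0.0472). Of the other uptake genes, 0 of 5 rose and 2 fell, among them Slc27a5, which couples bile acids to coenzyme A (-0.60 ± 0.14, adjusted p = 0.0185). The calls of Abcg5, Abcg8 and Slc27a5 were each lost without any of the livers, and Slc27a5 turned to 0.27 when centred on hepatocyte-enriched genes.

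Of 16 partners and targets of the FXR axis, 14 were tested against livers, of which 3 fell and none rose, with a list median of -0.79. Among all genes tested, 3.50% fell and 12.2% rose. Rxra, the retinoid X receptor that pairs with FXR, fell from 169, 127 and 147 TPM in livers to 41.6, 52.9, 30.7, 31.1 and 31.4 TPM in corrected explants (-1.97 ± 0.28, adjusted p = 0.00278). Its level in the irises was 28.2 to 31.3 TPM, and the call was lost with the deposited correction (-2.44, adjusted p = 0.0784) and when centred (-1.10, adjusted p = 0.0602). Hnf4a, a hepatocyte master regulator, was called lower (-0.92 ± 0.20, adjusted p = 0.0152), but not without any of the livers (0.0646 to 0.0858), with the deposited correction (0.0957) or when centred (-0.05, adjusted p = 0.887). Cyp7b1 of the alternative bile acid pathway was also called (-2.09 ± 0.60, adjusted p = 0.0440), with 81.4 TPM in liver 1 and 429.6 and 507 TPM in livers 2 and 3. Its call was lost without liver 2 or 3 (0.200 and 0.205), without explant 1, 2, 5 or 6 (0.0659 to 0.0844), with the deposited correction (0.0721) and when centred (-1.22, adjusted p = 0.132). Cyp7a1, the rate-limiting enzyme of bile acid synthesis that SHP represses, held 54.0, 148, 499, 147 and 189 TPM in explants and 212, 61.7 and 179 TPM in livers (0.28 ± 0.66, adjusted p = 0.778). Fgf15, the intestinal FXR target, was listed at 0 in 15 of 16 samples, and corrected explant 2 held 2.65 TPM, from 0.848 TPM before correction. Vdr was called against hepatocytes, where it was listed at 0, and held 1.21 to 6.61 TPM in corrected explants.

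Of 19 genes of the canalicular membrane and trafficking, 8 were called higher and 1 lower in corrected explants than in livers, with a list median of 0.95 (all genes 0.61). Among all genes tested, 12.2% were called higher and 3.50% lower. Ezr, a linker of membrane and actin, held 72.8 to 292 TPM and 5.78 to 18 TPM (3.81 ± 0.49, adjusted p = 0.00184), the tight junction gene Cgn 55.4 to 181 TPM and 16.8 to 20.9 TPM (2.33 ± 0.42, adjusted p = 0.00705), and the trafficking gene Vps33b 17.9 to 47.8 TPM and 5.47 to 11.3 TPM (1.89 ± 0.43, adjusted p = 0.0185). All of them were expressed in iris, where Ezr was 125 to 136 TPM and Cgn 45.3 to 56.4 TPM. Before correction Ezr did not differ from iris past the threshold (0.17 ± 0.09, adjusted p = 0.235), nor did Vps33b (0.18 ± 0.12, adjusted p = 0.371). Vps33b lost its call against livers without liver 2 or 3 (adjusted p = 0.102 and 0.0928) and with the deposited correction (0.0658).

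In spheroids against hepatocytes, 13.4% of all genes tested were called lower and 12.5% higher. Of the other uptake genes 4 of 5 fell, with a list median of -2.14, and none rose. Slc22a7 fell from 51.9 to 162 TPM in hepatocytes to 2.81 and 3.79 TPM (-5.25 ± 0.63, adjusted p = 0.00150). Slco2b1 (-2.14 ± 0.32) fell as well. Other canalicular transporters gave 1 higher and 2 lower of 8, with Abcb1a (2.71 ± 0.31, adjusted p = 0.00134) at 14.8 and 21.5 TPM against 1.31 to 2.68 TPM. Among efflux genes Abcc5 rose (2.81 ± 0.53, adjusted p = 0.00844), and Abcc6 (-1.81 ± 0.17, adjusted p = 0.000518) and Abca1 (-0.92 ± 0.20, adjusted p = 0.0140) fell. Abcc5 lost its call without spheroid sample 1 (2.24, adjusted p = 0.0656), and Abca1 without sample 2 (0.0578), by library size (0.0663) and with hepatocyte-enriched factors (0.21). FXR partners and targets gave 5 lower of 13 tested, led by Cyp7b1 (-2.66 ± 0.47, adjusted p = 0.00621), Nr1i3 (-1.43 ± 0.33, adjusted p = 0.0187) and Fgfr4 (-1.19 ± 0.35, adjusted p = 0.0431). Fgfr4 lost its call without any of the hepatocyte samples (0.0797 to 0.126), without spheroid sample 2 (-0.77, adjusted p = 0.128), by library size (0.130) and with hepatocyte-enriched factors (-0.03), where Nr1i3 (-0.43, adjusted p = 0.125) was lost too. Membrane and trafficking genes gave 3 higher and 4 lower of 19, with Cldn2 (-2.05), Slc9a3r1 (-1.57) and Ezr (1.97) as the largest. Ezr was 0.94 and not called without spheroid sample 1 (adjusted p = 0.214), and lost its call without hepatocyte sample 2 or 3 (0.0680 and 0.0782) and by limma-voom (0.0631). Slc9a3r1 was -0.50 and not called with hepatocyte-enriched factors (adjusted p = 0.0592).

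Between hepatocytes and livers no gene of the 5 lists was called by edgeR, where 0.785% of all genes tested were called higher and 2.84% lower. Among all genes tested, 16.2% were called higher in corrected explants than in hepatocytes and 3.96% lower. Against hepatocytes, corrected explants were called higher in 1 of 8, 0 of 5, 2 of 5, 1 of 14 and 7 of 19 genes of the canalicular, uptake, efflux, FXR and membrane lists, and lower in 1, 2, 1, 5 and 0. These included Abcb1a (3.08 ± 0.63), Slc47a1 (-0.99 ± 0.27), Slc27a5 (-0.71 ± 0.13), Cyp7b1 (-2.95 ± 0.40), Rxra (-1.55 ± 0.31), Ezr (5.12 ± 0.44) and Cgn (2.17 ± 0.44). Slc47a1 lost its call without any of the hepatocyte samples (adjusted p = 0.0949 to 0.140) or explant 5 (0.0634), Abcb1a without hepatocyte sample 3 (0.0532), and Rxra without sample 2 (0.0562). With the deposited correction Slc47a1 (0.124), Abcb1a (0.242), Rxra (0.118) and Abcc1 (0.141) lost theirs, and when centred Slc47a1 (-0.03), Rxra (-0.59), Abcc6 (-0.88) and Slc27a5 (0.25) were not called. Against spheroids the calls were Slc51b, Ezr (3.25 ± 0.61, adjusted p = 0.0205) and Cldn2 (2.61 ± 0.38, adjusted p = 0.00753). The last 2 were not called without either spheroid sample (adjusted p = 0.0631 and 0.258 for Ezr, 0.103 and 0.0961 for Cldn2), nor Ezr without explant 5 (0.0520), with the deposited correction (0.0589) or when centred (0.0768). Explants rose over iris in 5 of 8, 4 of 5, 3 of 5, 9 of 14 and 7 of 19 of these genes, with Cyp7a1 (5.28 ± 0.80), Hnf4a (4.42 ± 0.49), Slc27a5 (4.40 ± 0.44) and Cyp8b1 (4.27 ± 0.66) highest. Of all genes tested, 9.04% rose over iris.

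**Figure D4:**
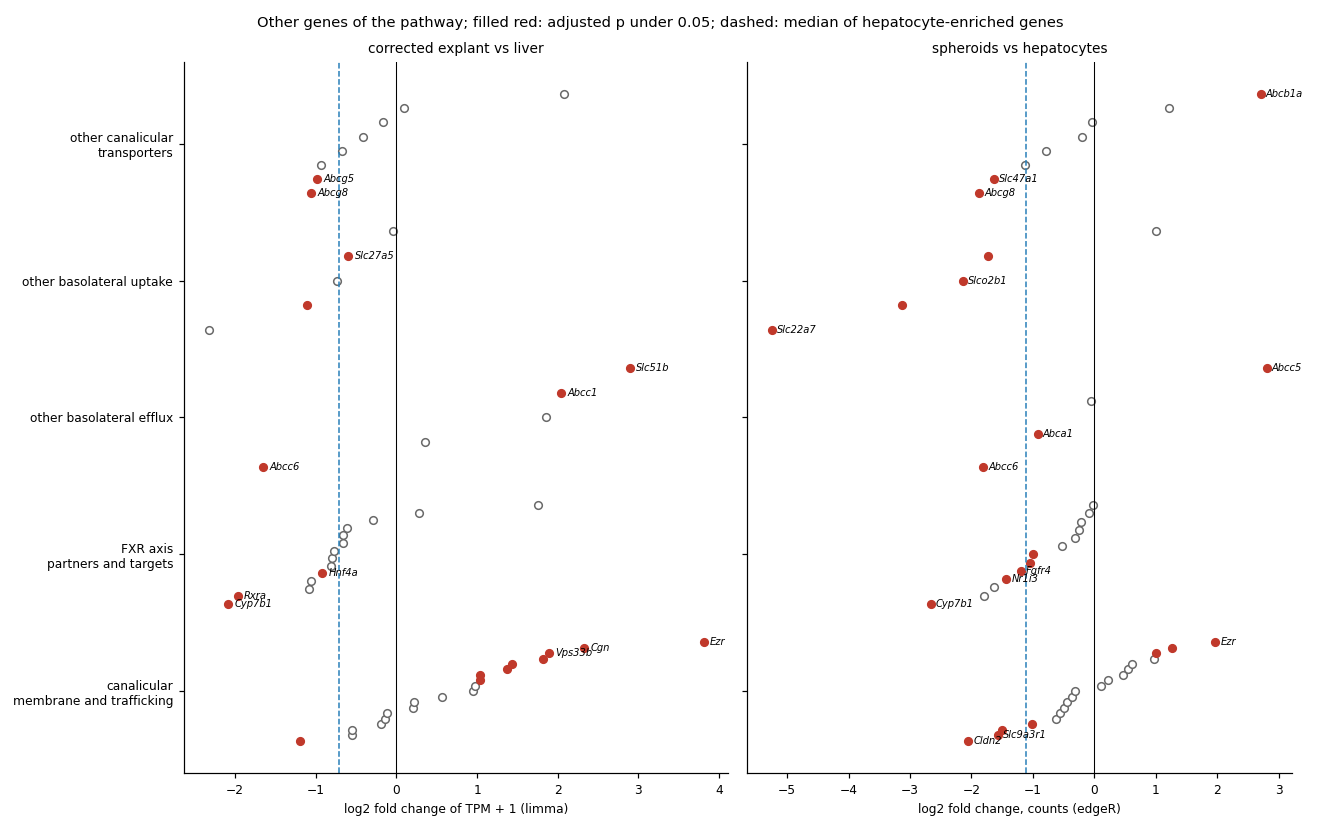
Log2 fold change of the other genes of bile transport, by list, in corrected explants against livers (left) and spheroids against hepatocytes (right). Filled red points have an adjusted p under 0.05, labelled points are genes named in the text, and the dashed line is the median of hepatocyte-enriched genes. Ezr and Slc51b, at 3.81 and 2.89, are highest on the left, and Slc22a7, at -5.25, is lowest on the right.

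The genes whose level followed a member most closely were sought over the 13 liver, hepatocyte, spheroid and corrected explant samples among 8528 genes, by Pearson's r of log2(TPM + 1), as a description. Nr1h4 was followed by Mbl2 (0.951) and Pfkfb1 (0.938), Slc10a1 by Adh5 (0.977), Mup2 (0.967) and Cyp27a1 (0.964), and Abcc3 by Tlcd4, 2810459M11Rik and Prox1os (0.951 each). Abcb11 was followed by Gm13613 (0.946), which shares its exon bases, Acat3 (0.939) and Ces2a (0.917). These samples share groups and the same subtraction. Among the members r was highest for Slc10a1 with Slco1a1 (0.89) and with Abcc3 (0.85). Nr0b2 went with Abcb11 at 0.76 and with Nr1h4 at -0.13, and Abcb4 went against Abcb11 at -0.53.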

How the data were processed

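The authors sequenced 48 Smart-seq3 libraries of 16 samples, aligned reads with TopHat2 to mm10, removed duplicates with UMI-tools and Samtools, and counted reads per gene with featureCounts 1.4.6-p5, without strand. They deposited counts per library and per sample, TPM from these counts, and TPM of 20702 genes with an iris contribution subtracted from the explants. Deposited counts per sample equal the sum of the 3 libraries in 100.0% of cells, and these sums were the replicates. ERCC controls (418 counts in all) stayed out of library sizes.

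For counts, the quasi-likelihood test of edgeR 4.0.16 was fitted to the compared groups only, after its default filter and TMM scaling (R 4.3.3), and corrected explants were tested with limma 3.58.1 (trend) on log2(TPM + 1), where the mean was at least 1 TPM and corrected values below 0 were set to 0. Such a fold change understates that of low genes. A call needed a p under 0.05 after Benjamini-Hochberg adjustment over every gene tested, at any fold. Exact permutation tests were two-sided, with smallest p of 0.0179 for 5 samples against 3, 0.0476 for 5 against 2 and 0.100 for 3 against 3 or 2. Alternatives used DESeq2 1.42.0, limma-voom, other scalings, filters, pseudocounts and subtractions, a replicate block, and each sample left out.

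The 10 members, lists and tests were chosen with earlier results of these data known. All members are named, and from each list at most 3 called genes per comparison with the largest fold change. Exceptions, named after their values were seen, are Slc51a, Cyp7a1 against livers, Fgf15, Gm13613 and Gm13614, and the genes of liver 1 in the closing section. A few genes that the rule names are not reported here. Gene locations are those of GRCm38 in the deposited files. Methods were tested on simulated data, with Python 3.11.15. Every column of the tables was matched to a sample.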

Additional observations from a re-analysis of the deposited data

Results flagged for a closer look

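Of 30 member levels and class ratios tested for a sample far from the others among the 5 explants, 3 stood out, with a gap to the nearest explant over the critical share of 0.71 of the whole range. Chance alone gives about 1 in 20. Before correction, Abcc2 was 56.1 TPM in explant 6, and 25.1 to 32.6 TPM in the others, a gap of 0.758. After correction it was 119 TPM in explant 6 beside 115 TPM in explant 4. Uptake over canalicular export was 4.19 in explant 4 and 1.84 to 2.32 in the others (gap 0.796). Abcb11 over Slc10a1 was 0.145 in explant 4 and 0.361 to 0.417 in the others (gap 0.794). Both ratios rest on explant 4, which had the lowest Abcb11 (93.0 TPM) and the highest Slco1b2 (619.6 TPM) of the corrected explants, and whose subtraction was redone by the formula. In the deposited column Abcb11 is 95.7 and Slco1b2 615 TPM there.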

How the results depend on the processing

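Counts of members called out of 10 are given here as in the report, where they were 8 for explants against irises, 1 for hepatocytes against livers, 6 for spheroids against hepatocytes, and 4, 6 and 0 for corrected explants against livers, hepatocytes and spheroids. They moved by over 1.5 times as follows. For explants against irises limma-voom gave 4. For hepatocytes against livers DESeq2 gave 2, no filter on low counts 4, and limma-voom, factors from hepatocyte-enriched genes, a single fit of all groups and a limit of 1 on the log2 fold change each 0. Against livers, corrected explants gave 1 with the deposited correction, 10 without subtraction of iris and 2 when centred on hepatocyte-enriched genes, and against hepatocytes 10 without subtraction. Against spheroids they gave 1 with a mean of at least 10 TPM, 6 without subtraction, 3 in a single fit and 3 by unadjusted exact permutation. Leaving out each sample gave 6 to 8, 0 to 1, 4 to 6, 1 to 5, 2 to 8 and 0 to 1 in the same order; a lone remaining sample is assumed to vary like the others. The cause of these shifts was not tested.

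Deviations of same-numbered samples of different groups correlated at -0.12 to 0.21, with both pairs over 0.1 for corrected explants against spheroids alone (0.21 and 0.11), and no source ties the numbers to shared animals. With the replicate block the members called were 8, 3, 7, 0, 4 and 0 in that order, on fewer residual degrees of freedom, and fewer samples where a group lacks a number. Against livers Slc10a1 was then -1.36 (limma, adjusted p = 0.0683), and Slc51b was not called (0.102). Slco1a1 turned to -0.51 against irises and Abcc2 to -0.13 against spheroids.

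Other members and list genes changed sign, on the log2 scale, in a few settings. For hepatocytes against livers a single fit gave Nr1h4 0.02, Abcb4 0.02 and Abcc2 0.04, and Abcc3 was -0.08 by library size, -0.18 with hepatocyte-enriched factors and -0.04 in technical libraries a alone. For spheroids against hepatocytes Nr1h4 was 0.16 by library size and 0.96 with hepatocyte-enriched factors, which gave Abcc3 0.32 and Abca1 0.21. Centring on hepatocyte-enriched genes turned Nr1h4 to 0.15, Nr0b2 to 0.65, Abcb11 to 0.41, Slco1b2 to 0.17 and Slc27a5 to 0.27 against livers, Nr1h4 to 0.43, Abcc2 to 0.21 and Slc27a5 to 0.25 against hepatocytes, and Abcc2 to -0.17 against spheroids. Without subtraction Abcb4 was -1.60 and -1.41 against livers and hepatocytes, and Abcb11 -1.10 and Abcc2 -1.32 against spheroids. With a sample left out, hepatocytes against livers ranged over -0.23 to 0.08 for Nr1h4, -0.18 to 0.06 for Abcb4, -0.16 to 0.10 for Abcc2 and -0.19 to 0.17 for Abcc3. Spheroids against hepatocytes ranged over -0.38 to 0.16 for Nr1h4, -0.17 to 1.06 for Abcb4 and -2.10 to 1.81 for Abcc4. Corrected explants ranged over -0.80 to 0.10 for Nr0b2 against livers, and against spheroids over -0.84 to 0.14 for Abcb4, -0.15 to 0.37 for Abcc2 and -0.64 to 0.41 for Slco1a1.

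Calls over all genes numbered 1975, 443, 3163, 3290, 4185 and 1295 in the same order. The ones that moved by over 1.5 times were, for explants against irises, limma-voom 1153, the replicate block 969, the fold limit 1085 and 761 to 784 without any of the irises. For hepatocytes against livers they were DESeq2 939, limma-voom 21, hepatocyte-enriched factors 857, no filter 1723, libraries a 200, the single fit 2251 and 8 to 568 with a sample left out. Spheroids against hepatocytes gave 8342 with hepatocyte-enriched factors, 4908 in the single fit 1869 without hepatocyte sample 3 and 1958 without spheroid sample 1. Against livers, hepatocytes and spheroids, the deposited correction gave 1453, 2267 and 493, no subtraction 14066, 14936 and 12078, centring 6145, 8448 and 582, the single fit 5557, 6468 and 3246 and the replicate block 186, 2072 and 539. Unadjusted permutation gave 5076 against livers and 3612 against spheroids, and a left-out sample as few as 1165, 2104 and 165.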

Other observations

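The explants differed from each other along the FXR axis and in other members. Nr0b2 and Abcb11, both targets of FXR, and Slc51b were lowest in explant 4 and highest in explant 6, before and after correction. Explant 6 had the lowest iris fraction, 59.0%. After correction it was also highest for Abcb4 (113 TPM), Abcc2 (119 TPM), Slc10a1 (672 TPM) and Abcc3 (118 TPM). Slco1a1, Slco1b2 and Abcc4 were highest in explant 4. The highest corrected level was 6.47 times the lowest for Nr0b2, 4.90 times for Slc51b and 2.61 times for Abcb11. Cyp7a1, which lies downstream of SHP repression, was highest in explant 4, at 499 TPM, and lowest in explant 1, at 54.0 TPM. Nr1h4 itself was lowest in explant 1 and highest in explant 6. With 5 explants and genes named after their values were seen, this order was not tested.

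Liver 1 stood apart from livers 2 and 3 in several genes, which were picked after their values were seen. It had less Slco1a1 (10.2 TPM against 276 and 325), Nr0b2 (49.9 against 176 and 163) and Cyp7b1 (81.4 against 429.6 and 507), and more Slco1a4 (132 against 32.9 and 37.3) and Abcc4 (14.1 against 1.60 and 3.45). The corrected explants held 0 to 17.4 TPM of Slco1a1 and 35.7 to 106 TPM of Cyp7b1, below livers 2 and 3 for both genes.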
